A study of Mus musculus with 6 samples.

Results

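The genes described here write, copy and erase DNA methylation: Cdca7, Hells, Uhrf1, Uhrf2, Dnmt1, Dnmt3a, Dnmt3b, Tet1, Tet2 and Tet3. They were taken from a list of 10 names, all 10 of which were measured, out of 19938 genes on the arrays. Each gene is given by its probe set with the highest mean over all arrays, a choice that does not use the groups. The list was drawn up with earlier results of these data known. Cdca7 and Uhrf1 were chosen by their measured rise over PBS, so these differences are given as values with no test. Expression was measured with Affymetrix arrays in BDC2.5 CD4 T cells, whose T cell receptor recognises an antigen of pancreatic beta cells, after their transfer into female NOD mice, a strain that develops autoimmune diabetes. The mice were 7 weeks old and were given PBS or 100 ng of anti-DEC205-BDC or anti-DCIR2-BDC. These are antibodies coupled to that antigen, which they bring to dendritic cells with the receptor DEC205 or the receptor DCIR2. After 14 h the transferred T cells were recovered from the spleen by negative magnetic selection and sorted as Thy1.1+CD4+. Strain, transferred receptor and sort were thus shared by all groups, and without a group given antibody alone, effects of antigen and antibody cannot be told apart. Each of the 3 groups had 2 arrays, called PBS, DEC205 and DCIR2 arrays 1 and 2. They are described as biological duplicates with no number of mice, so p-values measure only the spread between these samples.

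In mammals, DNA methylation sits mostly on cytosines that precede a guanine, the CpG sites. Dnmt3a and Dnmt3b place new marks, and Dnmt1 copies existing marks onto the new strand after replication, guided by Uhrf1, which recognises half-copied sites. Cdca7 is a zinc finger protein that brings the remodeling enzyme Hells to nucleosomes and so opens compacted DNA to the methylation machinery. Tet1, Tet2 and Tet3 oxidise the methyl group, which leads to its loss. In CD4 T cells these enzymes are known for fixing which cytokine and lineage genes stay silent when naive cells divide and differentiate.

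Values are log2 expression from RMA, in which a step of 1 is a doubling. Medians over all probe sets lay between 5.43 and 5.56 on the 6 arrays. Of all genes, 1763 of 19938 passed after anti-DEC205-BDC (1060 higher, 703 lower) and 3568 after anti-DCIR2-BDC (2008 higher, 1560 lower), with limma at an adjusted p of 0.05. With each array centred on its median the splits were 1186 higher and 498 lower, and 2394 higher and 1173 lower. That centring moved the median log2 change of all genes after anti-DCIR2-BDC from -0.05 to 0.06, so small changes of a single gene depend on the scaling. The first count fell to 1013 without PBS array 1, 1131 without DEC205 array 1 and 997 without DEC205 array 2, and the second to 2285 without DCIR2 array 1 and 2090 without DCIR2 array 2.

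Cdca7, its partner Hells, Uhrf1 and the de novo enzyme Dnmt3a were higher on every array of both antibody groups than on either PBS array, by 2.25-fold to 13.9-fold. The copying enzyme Dnmt1 rose and Tet1, which starts the removal of the mark, fell after anti-DCIR2-BDC, and neither passed after anti-DEC205-BDC (limma adjusted p = 0.1 and 0.0918). Uhrf2, Dnmt3b, Tet2 and Tet3 passed in neither comparison. After anti-DEC205-BDC 4 of the 10 genes passed upwards and 0 downwards, against 5.32% and 3.53% of all genes (8.84% in either direction). After anti-DCIR2-BDC 5 passed upwards and 1 downwards, against 10.1% and 7.82% (17.9% in either direction). Both antibody arrays lay above both PBS arrays for 6 of the 10 genes and below them for 3, in either comparison. Of all genes 22.2% lay above and 26.5% below without overlap after anti-DEC205-BDC (48.8% in all), and 23.4% and 31.9% after anti-DCIR2-BDC (55.3% in all). Cdca7 and Uhrf1 are among these counts, which therefore describe the list and do not test it. The median log2 change of the 10 genes was 0.41 and 0.68 in the comparisons with PBS, where the median of all genes was -0.03 and -0.05. Both comparisons share the PBS arrays. In these bulk samples, fewer cells with an RNA and less of it per cell cannot be told apart.

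**Figure D1:**
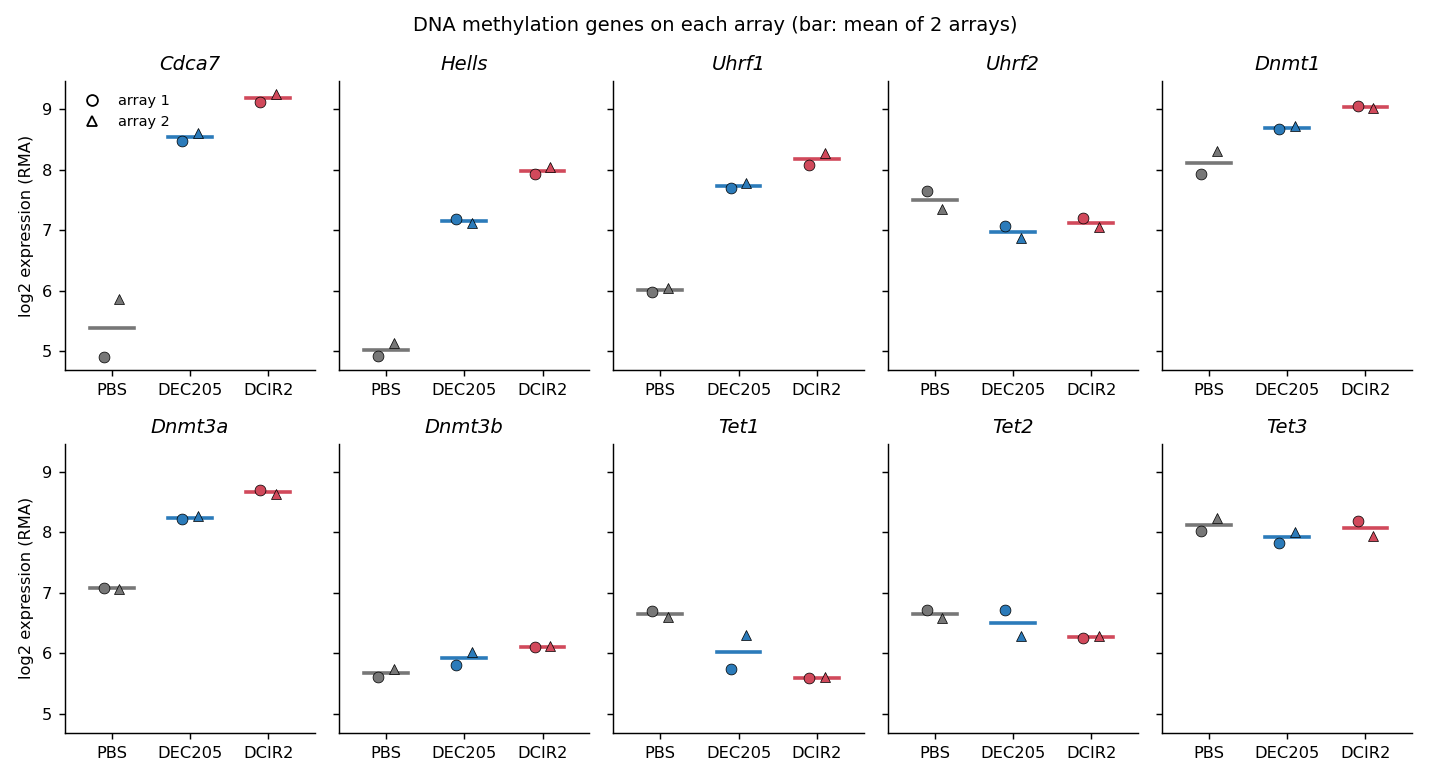
Log2 expression (RMA) of the 10 DNA methylation genes on each array, by group, with circles for array 1, triangles for array 2 and a bar at the mean of the 2 arrays. Cdca7, Hells, Uhrf1, Dnmt1, Dnmt3a and Dnmt3b step up from PBS to DEC205 to DCIR2 without overlap, Tet1 steps down, and Tet3 lies between 7.82 and 8.23 in all groups.

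Cdca7 stood at 4.90 and 5.87 on PBS arrays 1 and 2, at 8.48 and 8.60 on the DEC205 arrays and at 9.12 and 9.25 on the DCIR2 arrays. The 3 groups did not overlap, and most of the spread lay between the PBS arrays (SD 0.68, against 0.09 in each antibody group). Against PBS the gene was 8.91-fold higher after anti-DEC205-BDC (95% interval 5.79 to 13.7) and 13.9-fold higher after anti-DCIR2-BDC (9.06 to 21.4). Leaving out 1 array at a time gave log2 changes from 2.67 to 3.64 and from 3.32 to 4.28.

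Hells, the chromatin remodeler that works with Cdca7, stood at 4.92 and 5.14 on the PBS arrays. On the DEC205 arrays it reached 7.19 and 7.11, and on the DCIR2 arrays 7.93 and 8.04. Groups were again separate, and replicates lay close together, with SDs of 0.05 to 0.16. The rise was 4.35-fold after anti-DEC205-BDC (log2 change 2.12, standard error 0.18, limma adjusted p = 0.000412) and 7.76-fold after anti-DCIR2-BDC (log2 change 2.96, adjusted p = 3.17e-05). It passed in all 17 alternative fits of both comparisons.

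Uhrf1, which leads Dnmt1 to freshly replicated DNA, and its relative Uhrf2 had the groups in different orders. Uhrf1 stood at 5.98 and 6.04 on the PBS arrays, 7.70 and 7.77 on the DEC205 arrays and 8.08 and 8.28 on the DCIR2 arrays. It was 3.31-fold higher after anti-DEC205-BDC (95% interval 2.49 to 4.40) and 4.51-fold higher after anti-DCIR2-BDC (log2 change 2.17, 95% interval 1.76 to 2.58), with no overlap between groups. Uhrf2, which binds the same kind of sites but does not replace Uhrf1 in copying methylation, was highest under PBS, at 7.65 and 7.34. Its DEC205 arrays lay at 7.07 and 6.87 and its DCIR2 arrays at 7.20 and 7.05, below both PBS arrays. The log2 difference from PBS was -0.53 after anti-DEC205-BDC (95% interval -0.97 to -0.08, limma adjusted p = 0.153) and -0.38 after anti-DCIR2-BDC (-0.82 to 0.06, adjusted p = 0.257), and it passed in none of the 17 alternatives of either comparison. Whether the changes of Uhrf1 and Uhrf2 differ was not tested.

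Dnmt1, the enzyme that copies methylation, was higher on every antibody array than under PBS. Its values were 7.92 and 8.32 on the PBS arrays, 8.67 and 8.72 on the DEC205 arrays and 9.05 and 9.01 on the DCIR2 arrays. Both DCIR2 arrays also lay above both DEC205 arrays. After anti-DCIR2-BDC it rose 1.88-fold (log2 change 0.91, standard error 0.19, limma adjusted p = 0.00692). Leaving out PBS array 1 (log2 change 0.72, limma adjusted p = 0.0534) or DCIR2 array 1 (0.89, adjusted p = 0.0555) ended this call, and over the alternatives its adjusted p went from 0.00236 to 0.0555. After anti-DEC205-BDC the log2 difference of 0.57 (95% interval 0.15 to 0.996) did not pass (adjusted p = 0.1), and passed among the alternatives only without the dimmest 50% of genes (adjusted p = 0.0469, with 0.43 at the other end).

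Cdca7, Hells, Uhrf1, Dnmt1 and Dnmt3a moved the same way, and the 250 bases before the annotated starts of all 10 genes (RefSeq, GRCm38.p6) were searched on both strands for the binding motif of the E2F factors, which switch on genes for DNA synthesis. The spellings were TTTCCCGC, TTTCGCGC, TTTGCCGC and TTTGGCGC. All 10 genes were found in the RefSeq table, with 15 such windows. Cdca7, Hells, Uhrf1 and Dnmt1 held a match in 1 window each, while Dnmt3a and the other 5 held none. Of all 32851 windows 1.86% held a match, and of the 5896 windows with at least 20 CpG sites, as all 4 matching windows have, 4.56%. For Cdca7 the part of the window before the first annotated base of the gene is shown, and for the others 30 bases around the match. These 4 genes are shown because their windows held a match. Capitals mark the match, letters run 5′ to 3′ on the gene's strand, and a capital run that begins with GCG reads as the motif on the opposite strand.
Cdca7, chr2:72475969-72476186, + strand: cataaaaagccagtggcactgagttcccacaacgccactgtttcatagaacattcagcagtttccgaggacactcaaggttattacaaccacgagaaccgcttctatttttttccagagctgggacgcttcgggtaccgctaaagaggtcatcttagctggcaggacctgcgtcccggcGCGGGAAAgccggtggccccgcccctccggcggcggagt
Hells, chr19:38930917-38930946, + strand: gaccaccgggtTTTCCCGCgaaagagaagc
Uhrf1, before the second annotated start, chr17:56304117-56304146, + strand: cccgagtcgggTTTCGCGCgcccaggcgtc
Dnmt1, before the third annotated start, chr9:20952824-20952853, - strand: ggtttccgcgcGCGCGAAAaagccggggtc

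In Cdca7 the match lies 71 to 64 bases before the start and in Hells 62 to 55 bases before it, both with the spelling TTTCCCGC. The Uhrf1 match, TTTCGCGC, lies 185 to 178 bases before the second of 2 annotated starts, and the window of the first start holds none. For Dnmt1 the match is in the window of the third of 3 starts, 219 to 212 bases before it. That window lies downstream of the other starts. RefSeq places the protein-coding genes at chr2:72476187-72486892 (Cdca7), chr19:38930262-38970470 (Hells), chr17:56303337-56323486 (Uhrf1) and chr9:20907206-20959888 (Dnmt1), so that the matches of Hells, Uhrf1 and Dnmt1 lie within the annotated span of the gene and that of Cdca7 before it. Cdca7 is also known as a MYC-responsive gene. The palindrome CACGTG, the core site of MYC and its partner MAX, was the only MYC spelling searched. It was found in none of these windows. It occurred only in the window of the third Dnmt3a start, 80 to 75 bases before it, and in 6.02% of all windows. A match is a spelling, and nothing here measured binding. Of 449 tested genes with an E2F match in any window, 12.9% passed upwards after anti-DEC205-BDC and 19.6% after anti-DCIR2-BDC. These 449 include Cdca7, Hells, Uhrf1 and Dnmt1, and were not limited to CpG-rich windows. Of 4200 genes with a CpG-rich window and no match, 7.71% and 16% passed upwards. Downwards it was 2.67% and 7.13% of the 449, and 4.4% and 9.64% of the 4200. The median log2 changes were 0.01 and 0.03 for the 449, and -0.01 and 0.0002 for the 4200. Whether these sets differ was not tested.

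Of the enzymes that place new methyl marks, Dnmt3a rose after both antibodies. It stood at 7.08 and 7.07 on the PBS arrays, 8.22 and 8.27 on the DEC205 arrays and 8.71 and 8.63 on the DCIR2 arrays. Replicates lay within 0.08 of each other, and groups did not overlap. The gene rose 2.25-fold after anti-DEC205-BDC (log2 change 1.17, standard error 0.18, limma adjusted p = 0.00334) and 3.01-fold after anti-DCIR2-BDC (log2 change 1.59, adjusted p = 0.000204), and passed in all 17 alternatives of both. Dnmt3b had 5.60 and 5.74 on the PBS arrays, 5.81 and 6.02 on the DEC205 arrays and 6.10 and 6.13 on the DCIR2 arrays. Its groups had the same order without overlap. The log2 differences from PBS were 0.24 (95% interval -0.12 to 0.61, adjusted p = 0.47) and 0.44 (0.07 to 0.80, adjusted p = 0.103). After anti-DCIR2-BDC Dnmt3b passed only with quantile normalization (adjusted p = 0.0395) or median centring (0.0425), and its adjusted p reached 0.348 in another alternative.

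Tet1, known for its part in stem and germ cells, stood at 6.70 and 6.60 on the PBS arrays, at 5.75 and 6.30 on the DEC205 arrays and at 5.60 on both DCIR2 arrays. Neither antibody group overlapped with PBS, but the DEC205 arrays lay far apart (SD 0.39). After anti-DCIR2-BDC Tet1 was 2.07-fold lower (log2 change -1.05, standard error 0.20, limma adjusted p = 0.00442), and it passed in all 17 alternatives. After anti-DEC205-BDC the difference of -0.63 did not pass (adjusted p = 0.0918). It was -0.35 without DEC205 array 1 (adjusted p = 0.442) and -0.90 without DEC205 array 2, where it passed (0.0382), as it did with the mean of its probe sets (-0.99, adjusted p = 0.0244).

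Tet1 has 3 probe sets that name it alone. The one used had a mean of 6.09 over the 6 arrays, just above the 6.01 and 5.81 of the others, so the choice was close. Its neighbours changed more: their log2 differences from PBS were -1.41 and -0.94 after anti-DEC205-BDC, and -1.32 and -1.27 after anti-DCIR2-BDC. On all 3 probe sets every antibody array lay below both PBS arrays. With every probe set on the arrays tested in limma, the one used passed after anti-DCIR2-BDC (adjusted p = 0.0377). The others, in the order above, did not (limma adjusted p = 0.0779 and 0.0528), their standard errors of 0.35 and 0.29 being larger.

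Tet2 and Tet3, the family members best known in lymphocytes, passed in neither comparison. Tet2 had 6.71 and 6.58 on the PBS arrays, 6.72 and 6.29 on the DEC205 arrays and 6.25 and 6.29 on the DCIR2 arrays. Both of its DCIR2 arrays and DEC205 array 2 lay below both PBS arrays, while DEC205 array 1 did not. The log2 difference after anti-DCIR2-BDC was -0.38 (95% interval -0.81 to 0.06, limma adjusted p = 0.247). Tet3 had 8.02 and 8.23, 7.82 and 8.01, and 8.19 and 7.95 in the same order, with DCIR2 overlapping PBS. Its differences were -0.21 (95% interval -0.64 to 0.22, adjusted p = 0.632) and -0.06 (-0.49 to 0.38, adjusted p = 0.901), and the sign of the latter turned in 4 of 17 alternatives, namely median centring, the mean of its probe sets, and without PBS array 2 or DCIR2 array 2. The other Tet3 probe set had a mean of 7.85 against 8.04 for the one used, spread from 7.10 to 8.21 between the PBS arrays, and gave 0.09 and 0.50, so the probe sets disagree in sign.

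**Figure D2:**
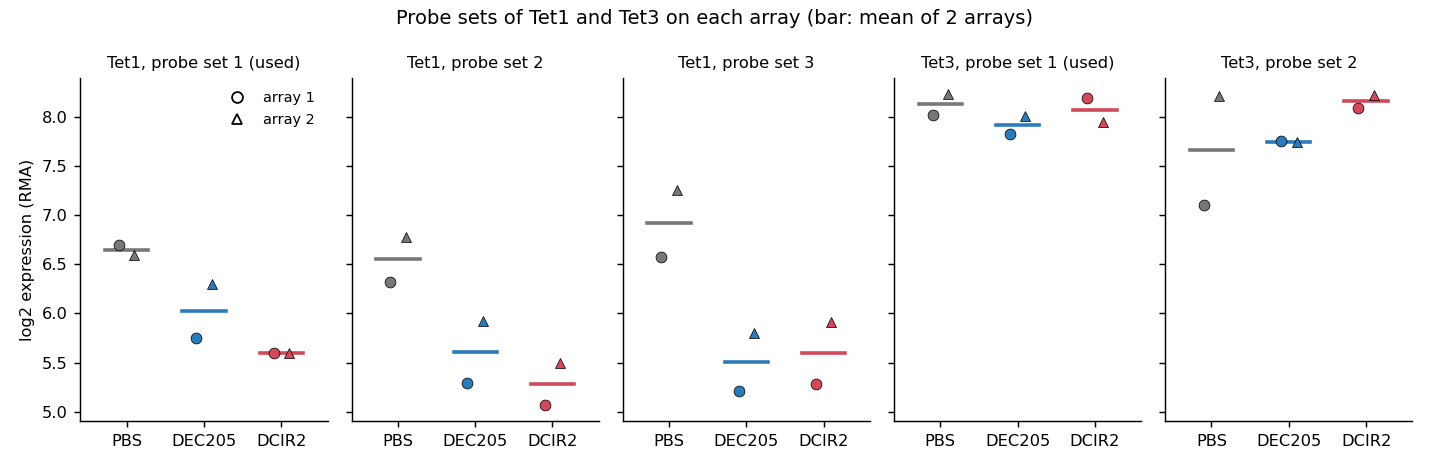
Log2 expression (RMA) of the 3 Tet1 and 2 Tet3 probe sets on each array, with circles for array 1, triangles for array 2 and a bar at the group mean. All 3 Tet1 probe sets are highest under PBS, while the Tet3 probe sets have no common order of the groups.

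Set against each other, the antibodies gave 0 of the 10 genes past the threshold in limma, as against 0.0201% of all genes. At an unadjusted p under 0.05 were 4 of the 10, against 2036 of 19938 genes. Cdca7 and Uhrf1, chosen by their rise over PBS, are among these 4. The DCIR2 arrays lay above both DEC205 arrays for 6 genes, namely Cdca7, Hells, Uhrf1, Dnmt1, Dnmt3a and Dnmt3b, and below them for 2, Tet1 and Tet2. Among all genes 19.3% were separated upwards and 20.9% downwards, 40.2% in all. Hells had the largest difference, 1.78-fold (log2 0.83, 95% interval 0.43 to 1.24, limma adjusted p = 0.19). Cdca7 differed by 0.65 (0.02 to 1.27, adjusted p = 0.475), Uhrf1 by 0.45 (0.04 to 0.86, adjusted p = 0.449) and Dnmt3a by 0.42 (0.03 to 0.82, adjusted p = 0.456). For Tet1 the difference was -0.42 (-0.87 to 0.02, adjusted p = 0.514). None of the 10 passed in any of the 17 alternatives of this comparison. In the order of levels PBS, DEC205, DCIR2, the step between the antibody groups is thus not established for any of these genes, and the intervals do not show that it is absent.

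**Figure D3:**
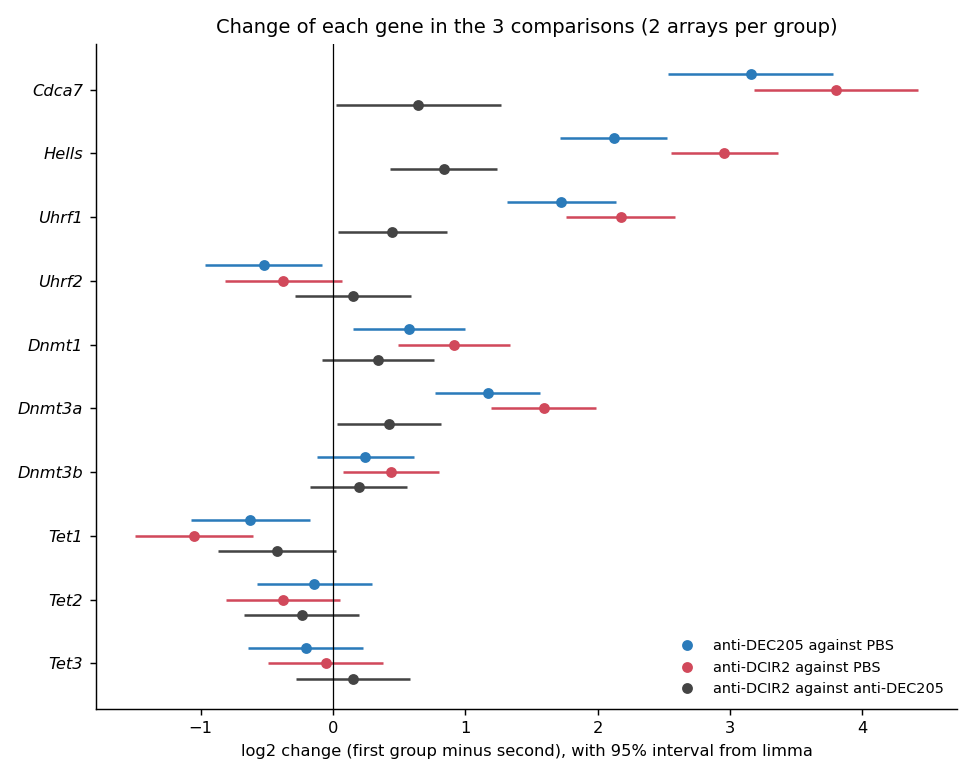
Log2 change of each gene in the 3 comparisons, with 95% intervals from limma over 2 arrays per group. For Cdca7 and Uhrf1, chosen by their rise over PBS, the intervals against PBS show the error only. Those of Hells, Dnmt1 and Dnmt3a lie above 0 in both comparisons with PBS, those of Tet1 below it, and those of Tet2 and Tet3 span it.

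Genes whose profile lay closest to these over the 6 arrays were sought by the root mean square difference of centred log2 values, over 17211 genes. Nearest to Cdca7 were the ribosome assembly factor Mrto4 (0.26), the lipid transporter Mfsd2a (0.33) and the transcription factor Irf4 (0.34). Nearest to Uhrf1 were Dctd, an enzyme of thymidine nucleotide supply (0.05), the one-carbon enzyme Shmt1 (0.06) and the nucleolar protein gene Gnl3 (0.08). Hells was closest to the surface protein gene Cd200 (0.12), the phosphatase gene Ptprs (0.14) and the nuclear pore gene Nup43 (0.14). Dnmt1 had Ubap2 (0.05), Cand1 (0.05) and Gtf2h4 (0.06) as neighbours. These likenesses rest on 3 groups of 2 arrays and carry no test.

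Of 21 partners and relatives of the methylation enzymes, 8 rose and 0 fell after anti-DCIR2-BDC (median log2 change 0.39), and 3 rose and 1 fell after anti-DEC205-BDC (median 0.13). Among all genes 10.1% rose and 7.82% fell after anti-DCIR2-BDC, and 5.32% and 3.53% after anti-DEC205-BDC. The counts of this and the following lists are to be read beside these shares. Lig1, the ligase that seals new DNA and is bound by Uhrf1, went from 6.21 and 6.41 on the PBS arrays to 7.23 and 7.38 on the DEC205 arrays (limma adjusted p = 0.00845) and 7.76 and 7.79 on the DCIR2 arrays (adjusted p = 0.000394). Cbx5, a protein of silent chromatin, rose by 1.28 after anti-DCIR2-BDC and 1.09 after anti-DEC205-BDC, Hdac2, a histone deacetylase, by 1.18 and 0.87, and Trim28, a corepressor of silenced repeats, by 1.19 after anti-DCIR2-BDC. Without DEC205 array 2 none of the 21 passed after anti-DEC205-BDC, and without PBS array 1 only 1 did, so the calls of Lig1, Cbx5 and Hdac2 there rest on those arrays. Without DCIR2 array 1, 5 of the 8 passed after anti-DCIR2-BDC.

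Mutations of CDCA7, HELLS, DNMT3B and ZBTB24 cause the same human immunodeficiency, and ZBTB24 is known to activate CDCA7. Zbtb24 stood at 6.49 and 6.60 on the PBS arrays, 6.05 and 5.60 on the DEC205 arrays and 6.09 and 5.95 on the DCIR2 arrays, with both antibody groups below PBS. The log2 difference was -0.72 after anti-DEC205-BDC (limma adjusted p = 0.0463) and -0.53 after anti-DCIR2-BDC (adjusted p = 0.0948). The former call was lost in 10 of 17 alternatives, among them both other scalings and every omission of 1 array except DEC205 array 1, with adjusted p from 0.026 to 0.282 over the 17. Cdca7l, the closest relative of Cdca7, had 6.66 and 6.36 under PBS, 6.98 and 7.16 on the DEC205 arrays and 7.16 and 7.59 on the DCIR2 arrays, at log2 differences of 0.56 (adjusted p = 0.157) and 0.87 (0.0167). The latter call was lost without PBS array 2 (adjusted p = 0.104) or DCIR2 array 2 (0.158), and ranged from 0.00952 to 0.158.

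Of 8 measured genes for readers of methylated CpG sites and their relatives, 1 rose and 2 fell after anti-DCIR2-BDC (median 0.05). After anti-DEC205-BDC 0 rose and 1 fell (median 0.02). Zbtb4, a zinc finger repressor that binds methylated DNA, was at -1.34 after anti-DCIR2-BDC (limma adjusted p = 0.000937), from 7.51 and 7.75 to 6.43 and 6.14. Its difference of -0.77 after anti-DEC205-BDC (adjusted p = 0.0359) was lost whichever of the 6 arrays was left out (adjusted p = 0.0591 to 0.162). Mbd3, a subunit of the NuRD corepressor, was at 0.85 (adjusted p = 0.0142) and Mbd2 at -0.59 (adjusted p = 0.039) after anti-DCIR2-BDC. Mbd3 did not pass without PBS array 2, DCIR2 array 1 or DCIR2 array 2, and Mbd2 did not pass whichever of the 6 arrays was left out.

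Among genes that remove oxidised bases or modulate Tet enzymes, 5 of 17 rose and 3 fell after anti-DCIR2-BDC, and 3 rose and 1 fell after anti-DEC205-BDC. Rises were led by Gadd45b, a stress-inducible gene linked to demethylation (log2 change 2.31 and 1.71), Apex1, which cuts abasic sites (1.60 and 1.26), and Parp1, which senses DNA breaks (1.37 and 1.01), in the same order of antibodies. Without DCIR2 array 1 the former count was 3 and 0, and without DCIR2 array 2 or PBS array 1 it was 3 and 2. Parp1 after anti-DEC205-BDC did not pass without PBS array 1 (limma adjusted p = 0.0614) or DEC205 array 2 (0.0616), range 0.00329 to 0.0616. Of 7 genes of the methyl donor cycle and their relatives 2 rose in each comparison. These were Mtrr, which reactivates methionine synthase (1.58 and 1.03), and the relative Ahcyl1 (0.66 and 0.74). Ahcyl1 was lost in both whenever an array other than PBS array 2 was left out, with adjusted p up to 0.249 and 0.234. Mtrr was lost after anti-DEC205-BDC without PBS array 1 (adjusted p = 0.113) or DEC205 array 2 (0.108), range 0.0077 to 0.113.

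Uhrf1, Hells and Dnmt1 are known to be made as cells enter DNA synthesis, and replication genes rose beside them. Of 22, 18 rose and 0 fell after anti-DCIR2-BDC (median log2 change 1.60), and 16 rose and 0 fell after anti-DEC205-BDC (median 1.04). Helicase subunits that license replication led: Mcm2 rose by 2.58 and 1.81, Mcm3 by 2.40 and 1.80 and Mcm6 by 2.29 and 1.69, each past the threshold in limma. After anti-DEC205-BDC 9 passed without PBS array 1, 10 without PBS array 2 and 9 without DEC205 array 1. Of 15 mitosis genes 6 rose after anti-DCIR2-BDC (median 0.48) and 3 after anti-DEC205-BDC (median 0.29), with 0 falling, and the latter count was 0 without PBS array 1, PBS array 2 or DEC205 array 1 and 1 without either DCIR2 array. Top2a, which untangles DNA before division, was at 1.58 and 0.93, while the proliferation marker Mki67 was at 0.08 (adjusted p = 0.87) and 0.12 (adjusted p = 0.833). Replication genes thus rose beside Cdca7, Hells, Uhrf1 and Dnmt3a, but not beside all members, as Tet1 fell after anti-DCIR2-BDC. How much of the members' change goes with replication genes was not tested.

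Among 14 genes of the E2F family, their Rb-type partners and Myc, 5 rose and 1 fell after anti-DCIR2-BDC, and 3 rose and 1 fell after anti-DEC205-BDC. Myc, a driver of growth that is known to act on Cdca7, had 8.86 and 9.99 under PBS, 11.18 and 11.79 on the DEC205 arrays and 12.14 and 12.19 on the DCIR2 arrays. PBS array 1 was the lowest for Myc and Cdca7, but also for Hells, Uhrf1, Dnmt1, Il2 and Il2ra, while Dnmt3a was lowest on PBS array 2. A link between Myc and Cdca7 was not tested. E2f1, an activator of replication genes, stood at 5.57 and 5.26, 5.72 and 5.85, and 6.43 and 6.53 in the same order. Its difference was 1.07 after anti-DCIR2-BDC (limma adjusted p = 0.0017) and 0.38 after anti-DEC205-BDC (adjusted p = 0.255). Rbl2, the Rb-type partner of resting cells, was lower by a log2 change of -1.24 after anti-DCIR2-BDC (adjusted p = 0.0023), and was at -0.87 after anti-DEC205-BDC (adjusted p = 0.0308, and 0.0557 to 0.148, thus lost, whichever PBS or DEC205 array was left out). After anti-DEC205-BDC 1 gene of this list passed without PBS array 1, DEC205 array 1 or DEC205 array 2.

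**Figure D4:**
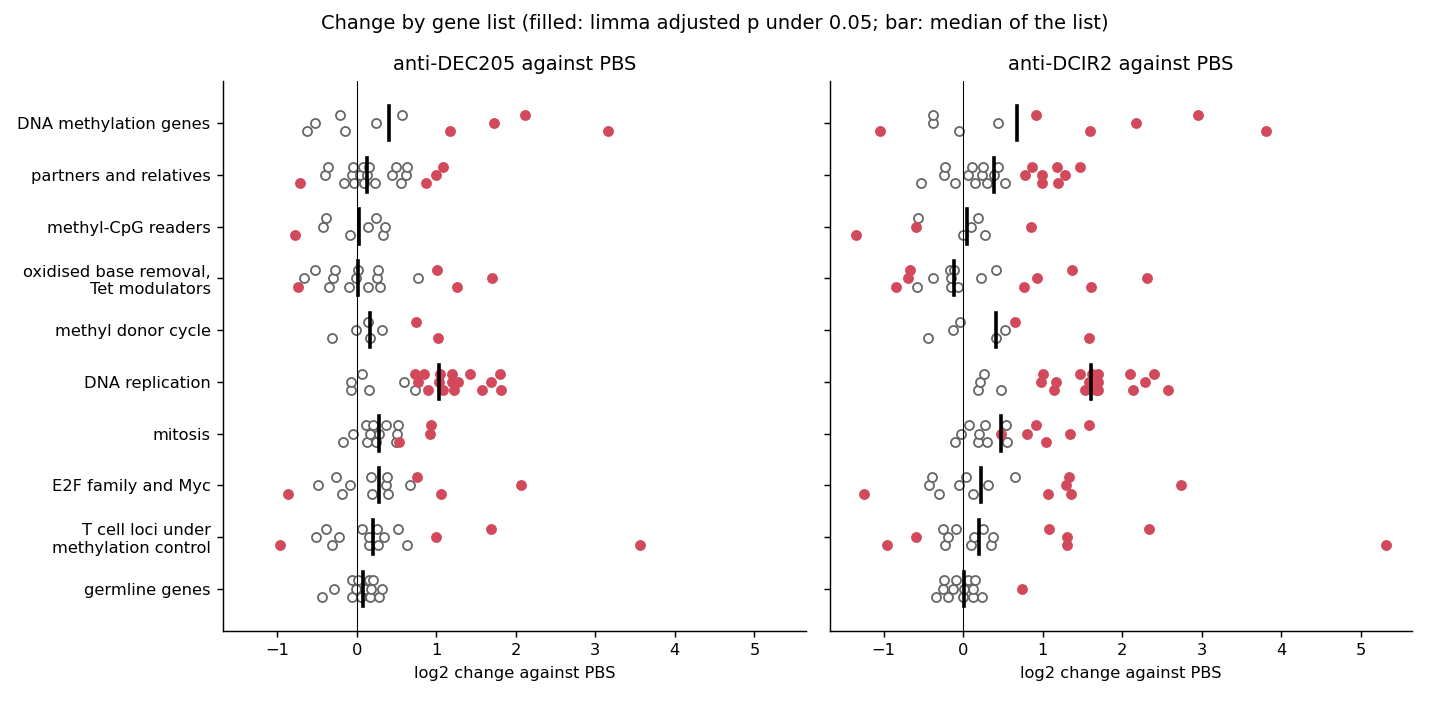
Log2 change against PBS of each measured gene, by list, for anti-DEC205-BDC and anti-DCIR2-BDC. Filled points passed limma's adjusted p of 0.05, open points did not, and bars mark list medians, which are highest for DNA replication (1.04 and 1.60) and near 0 for germline genes (0.08 and 0.01).

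Genes that DNA methylation is known to hold silent were read as well. Of 14 germline genes 0 passed after anti-DEC205-BDC in limma, as against 8.84% of all genes. At an unadjusted p under 0.05 were 2 of the 14, against 4135 of 19938 genes. After anti-DCIR2-BDC 1 rose, as against 10.1% of all genes, namely the cohesin gene Stag3 (log2 change 0.74, limma adjusted p = 0.00728). Stag3 did not pass without DCIR2 array 2 (adjusted p = 0.0741) or PBS array 2 (0.0512), range 0.00394 to 0.0741. The mean level of these genes lay between 4.25 and 4.38 on all 6 arrays, below the array medians of 5.43 to 5.56. At such dim levels a change could hardly be seen, so these counts do not show that the genes stayed silent. Of 16 T cell loci known for control by methylation 5 rose and 2 fell after anti-DCIR2-BDC and 3 rose and 1 fell after anti-DEC205-BDC, and without DCIR2 array 1 the former were 3 and 0. Il2, the T cell growth factor gene, rose by 5.31 and 3.57, and Il2ra, a chain of its receptor, by 2.33 and 1.69. Prf1, the perforin gene, had the largest falls, at -0.95 and -0.97, and passed in 16 and 15 of 17 alternatives. Foxp3, whose stable expression in regulatory T cells depends on demethylation, was at -0.26 (adjusted p = 0.472) and -0.32 (adjusted p = 0.44). The arrays measured no methylation, so none of these values says how any locus was marked.

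Defining markers of the sorted cells were bright, with a mean of 7 T cell genes between 9.75 and 10.4 on the arrays. After anti-DCIR2-BDC 1 of them rose, Zap70 (log2 change 1.31), and 5 fell, among them Cd3g (-1.24) and Cd3d (-1.03). After anti-DEC205-BDC 1 rose, again Zap70 (1.15), and 0 fell. The mean of 5 B cell markers was 5.11 to 5.21 under PBS, 5.17 to 5.30 on the DEC205 arrays and 4.92 to 5.17 on the DCIR2 arrays, that of 6 macrophage and monocyte markers 5.34, 5.27 to 5.35 and 5.12 to 5.15, and that of 4 neutrophil markers 4.59 to 4.86, 4.68 to 4.86 and 4.57 to 4.73. For 8 dendritic cell markers it was 5.03 to 5.06, 4.97 to 5.03 and 4.88 to 4.95. The 4 natural killer cell markers went from 4.74 to 4.80 under PBS to 4.36 to 4.47 and 4.05 to 4.17. Among them Klrd1 stood at 7.33 and 7.62, 6.55 and 5.32, and 4.79 and 4.92, while Ncr1, Klrb1c and Klra8 passed in neither comparison. Of the markers outside the T cell list none rose, and Klrd1, Ly75 and Prdm1 fell in both comparisons. Ly75 is the gene of the receptor DEC205 itself and was the brightest of the 8 dendritic cell markers. Its group means were 7.44 under PBS, 6.69 for DEC205 and 6.34 for DCIR2, while Zbtb46, the next brightest, had 6.13 and 5.88 on the PBS arrays. No other dendritic cell marker passed in either comparison. Whether the Ly75 signal came from the T cells or from other cells was not tested. After anti-DEC205-BDC Klrd1 was lost without PBS array 2, Ly75 whichever of the 6 arrays was left out, and Prdm1 whenever an array other than PBS array 2 was. After anti-DCIR2-BDC Prdm1 was lost without PBS array 1 or DCIR2 array 1. The part of other cells in the members' changes was not tested.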

How the data were processed

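Each deposited column holds log2 values of 1 array, which the authors computed by RMA with Partek according to the submitters' processing notes, with no version stated. Since RMA gives arrays a like distribution, a shift of all genes at once is lost. RNA was amplified from small amounts per the labels' protocols, which can add noise to dim probe sets. Of 35556 probe sets, 21789 had 1 gene symbol in the platform annotation, 1621 several and 12146 none here. Entrez identifiers matched 21698 of the former to RefSeq genes (GRCm38.p6). Probe sets with 1 symbol were kept, and the brightest per gene over all arrays gave 19938 genes, with no filter.

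The 3 groups were fitted together with limma 3.58.1 in R 4.3.3, with a variance trend and Benjamini-Hochberg adjustment over all genes, at an adjusted p of 0.05, two-sided. With 2 arrays per group the typical (median) 95% interval of a log2 change spanned 0.39 on each side. The fit was tested on simulated data. No block for the replicate number was used, as nothing in the labels ties equal numbers to a mouse or day. The alternatives were 2 scalings, every probe set, mean probe sets, 2 filters on dim genes, 3 variance models, only the 4 arrays compared, the replicate block, and leaving out each array. No array copied another (at most 22 identical values). The members and lists were chosen with earlier results of these data known. All members were named. In further lists up to 4 genes were picked by largest mean change, passing genes first. Cdca7l, Zbtb24, E2f1, Myc, Foxp3, Mki67 and a few others were picked by name. Not every gene so picked is printed, Pcna, Usp7, E2f8, Pdcd1, E2f3, E2f4 and others being left out. Single cell type markers were named after their values were seen. The motif search was added after the expression values had been seen. List genes with no value of their own, such as Suv39h1, Tdg, Mat2a, Ahcy, Ccnb1 and Lck, were not analysed here. Lists of 2 CD8 T cell, 4 plasma cell and 1 erythroid markers were read too, and of these only Prdm1 passed.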

Additional observations from a re-analysis of the deposited data

How the results depend on the processing

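Of the 10 genes, 4 to 5 passed after anti-DEC205-BDC, 5 to 7 after anti-DCIR2-BDC and 0 between the antibodies under the 17 alternatives. Hells and Dnmt3a kept their side of the threshold against PBS in all of them, and Tet1 after anti-DCIR2-BDC. Counts over all genes moved more. After anti-DEC205-BDC 694 probe sets passed when every probe set was tested, against 1763 genes, and leaving out 1 array gave 997 to 1367. After anti-DCIR2-BDC leaving out 1 array gave 2090 to 3637, against 3568. Between the antibodies 4 genes passed, 0 with every probe set or no trend, 7 and 9 without the dimmest 30% and 50% of genes, and 0 to 27 with 1 array left out; the cause was not tested. With the replicate number as a block 2 passed between the antibodies, and 4, 6 and 0 of the 10 genes in the 3 comparisons, as without it. Over all genes the block gave 2069 after anti-DEC205-BDC, against 1763, and 3885 after anti-DCIR2-BDC, against 3568. Deviations of arrays with the same number correlated at 0.14, 0.13 and 0.07 between the groups. These values do not settle whether equal numbers were pairs, and as no label ties them, the numbers were not taken as pairs. Where a group was left with 1 array, that array is assumed to vary like the others. Testing every probe set also cost calls of the lists: 6 replication genes passed after anti-DEC205-BDC, against 16. After anti-DCIR2-BDC it left 5 partners, against 8, 4 genes of oxidised base removal, against 8, and 4 T cell loci, against 7. There it also left 1 gene in the methyl-CpG reader list, against 3, and 1 in the methyl donor list, against 2. Without the dimmest 50% of genes 2 mitosis genes passed after anti-DCIR2-BDC, against 6. With 2 arrays per group, differences of less than about 0.39 on the log2 scale are within the typical 95% interval.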
